A study of Mus musculus with 9 samples.

Results

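The MHC class II presentation genes were followed here as 10 genes: H2-Aa, H2-Ab1, H2-Eb1, Cd74, H2-DMa, H2-DMb1, H2-DMb2, H2-Oa, H2-Ob and Ciita. They were chosen by symbol, as the chains of the class II molecules, their chaperones and their transactivator, and are 10 of the 22322 genes in the expression table. The cells were long-term haematopoietic stem cells (LT-HSCs), sorted from mouse bone marrow as lineage-negative cells with Sca-1, c-Kit and CD150 and without CD135 and CD48. The mice were C57BL/6, aged 6 to 8 weeks, in 3 genotypes with 3 separate mice each: wild type (WT), Cxcl10-/-, which lack a chemokine ligand of CXCR3, and Cxcr3-/-, which lack that receptor. Each library came from 500 to 800 cells of 1 mouse, of which the polyA RNA was amplified to cDNA before sequencing, and the labels name no treatment. How the knockout alleles were made, whether they act in all cells and whether the groups were littermates is not given in the sources used here.

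Class II molecules are pairs of an alpha and a beta chain that carry peptides from endosomes to the cell surface, where CD4 T cells read them. New pairs are held by the invariant chain CD74, whose last fragment is exchanged for a peptide with the help of the DM molecule, while the DO molecule inhibits DM. The genes are best known from B cells, dendritic cells and macrophages, are induced by interferon-gamma in many other cells, and have also been described as active in mouse blood stem cells. CIITA, which binds no DNA itself, switches them on by joining the RFX, CREB and NF-Y factors that sit on a shared promoter module called the X and Y boxes.

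The X and Y boxes are what promoters of the group are said to share in sequence, and the stretches below show them because the genes are described together. RefSeq promoters of build GRCm38.p6, from 250 bases before to 50 after each gene start, are given here for 7 of the 10 members. The search also covered Cd74, whose result was left out by choice. In 6 of the 7 an X box core stood 22 to 32 bases before a Y box core, counted from start to start on the strand of the gene. Each line runs 5′ to 3′, with the X box core and the Y box core in capitals.
H2-Eb1: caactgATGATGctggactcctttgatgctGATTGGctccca
H2-DMb1: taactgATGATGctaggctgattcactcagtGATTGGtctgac
H2-DMb2: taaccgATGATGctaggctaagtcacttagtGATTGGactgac
H2-Ob: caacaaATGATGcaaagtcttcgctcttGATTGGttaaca
H2-Aa: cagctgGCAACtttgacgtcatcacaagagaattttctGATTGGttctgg
H2-Oa: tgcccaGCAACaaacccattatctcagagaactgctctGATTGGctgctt
H2-Eb1 was read at chr17:34305777-34305818, H2-DMb1 at chr17:34153098-34153140, H2-DMb2 at chr17:34145127-34145169, H2-Ob at chr17:34238819-34238858 and H2-Oa at chr17:34092297-34092346, all on the plus strand, and H2-Aa at chr17:34287861-34287910 on the minus strand. In the first 4 lines ATGATG was marked as the X box core, and in the last 2 GCAAC. The Y box core is GATTGG. The windows of H2-Eb1 and H2-Ob held GCAAC too, on either strand, but only ATGATG was marked there. The 2 marks may thus be different parts of the X box and not 2 forms of the same part. The distance to the Y box core was 22 to 25 bases from ATGATG and 32 from GCAAC, so its spread depends on the mark. The letters of these cores were set after the promoters had been read, and promoters were searched on both strands. The Y box core was in 16.11% of 32851 promoters of the same length, ATGATG in 11.17% and GCAAC in 35.21%. Either X box core 10 to 40 bases before a Y box core on the gene strand was found in 105 promoters (0.3196%). With ATGATG there were 19, among them those of H2-Eb1, H2-DMb1, H2-DMb2 and H2-Ob. No such pair was in the windows given for H2-DMa.

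The values below are FPKM, which count fragments per length of transcript and per size of library, so that levels of different genes can be compared. The libraries held 12098498 to 17904629 expected counts. The Cxcl10-/- libraries stood apart from the other 6. Of their counts, 3.89 ± 0.287% (SD, n = 3) came from the mitochondrial genome, against 12.9 ± 0.258% in WT and 10.8 ± 0.479% in Cxcr3-/-. The 12 endothelial marker genes summed to 516 to 733 FPKM there, against 99.4 to 124 in WT and 91.4 to 144 in Cxcr3-/-, and their part in the results was not tested. All 12 marker genes of LT-HSCs were detected in each genotype, with sums of 724 to 842 FPKM in WT, 724 to 843 in Cxcl10-/- and 775 to 807 in Cxcr3-/-. Slamf1, the gene of the sort marker CD150, averaged 6.50 FPKM in the WT libraries and 1.84 in those of Cxcl10-/- (-1.60 ± 0.45 in log2(FPKM + 1), SE, with adjusted p = 0.0458 in limma and 0.119 in edgeR). In Cxcr3-/- against Cxcl10-/-, limma called 2 of the 12 higher (4.69% of all tested genes) and 1 lower (7.81%). Kit was higher (115.5 against 66.5 FPKM, limma adjusted p = 0.0283, edgeR 0.0133), as was Slamf1 (7.44 against 1.84, limma 0.0266, edgeR 0.0867). Hoxb5 was lower (2.66 against 7.74, limma 0.0410, edgeR 0.134). Cxcl10 itself had 0 counts in all 3 Cxcl10-/- libraries, while Cxcr3 had at most 8 counts in any WT library and cannot check its label. In such bulk libraries, fewer cells of a type and less RNA per cell cannot be told apart.

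In WT cells the members spanned levels from among the highest of the table to near 0. H2-DMa, at 167 ± 30.1 FPKM (SD, n = 3), stood above 97.0% of the 22322 genes and Cd74, at 119 ± 22.7, above 95.9%. H2-Aa followed at 85.0 ± 22.1, and each of these neighbours overlapped the next over the 3 libraries. H2-Ab1 came next at 48.0 ± 7.22 FPKM, below every H2-Aa library, and then H2-DMb1 at 21.4 ± 10.1, H2-Eb1 at 16.4 ± 6.26 and H2-Oa at 12.9 ± 3.18, which overlapped one another in that order. H2-Ob at 6.48 ± 0.272, H2-DMb2 at 1.89 ± 0.775 and Ciita at 0.457 ± 0.389 each lay apart from their neighbours. In Cxcr3-/- cells the order changed at the top: H2-Aa had the highest mean, 191 ± 87.8 FPKM, and overlapped Cd74, which overlapped H2-DMa, which overlapped H2-Ab1. In Cxcl10-/- cells Cd74 (175 ± 63.0) and H2-DMa (134 ± 25.7) lay apart from H2-Aa, at 50.7 ± 22.3, and from all members below it.

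**Figure D1:**
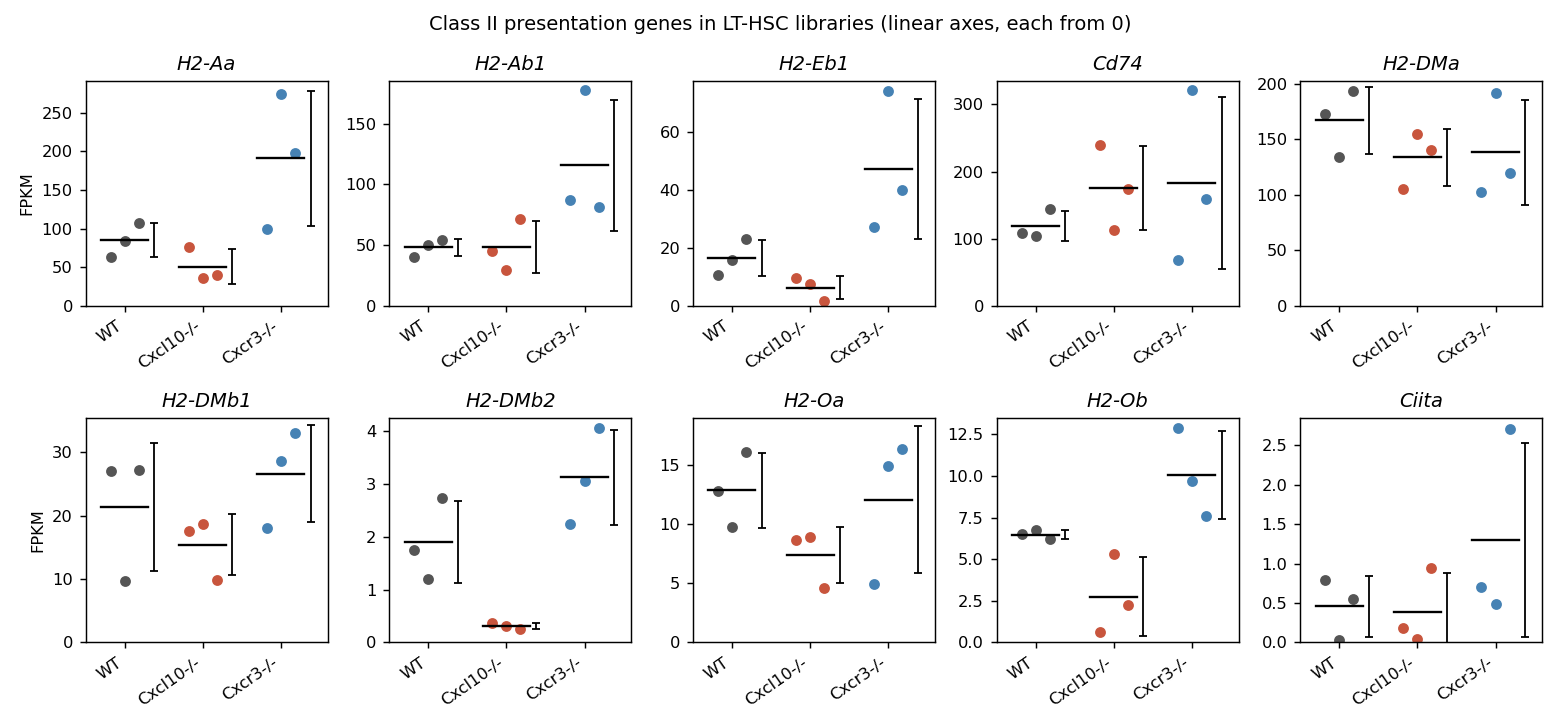
FPKM of the 10 class II presentation genes in each of the 9 libraries, on linear axes from 0; points are libraries, horizontal bars the mean and error bars 1 SD of 3 libraries, cut at 0 for Ciita. The H2-Aa, H2-Ab1, H2-Eb1, H2-DMb2 and H2-Ob points of Cxcr3-/- all lie above those of Cxcl10-/-, whereas those of Cd74, H2-DMa, H2-DMb1, H2-Oa and Ciita overlap.

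The 3 comparisons share libraries, so they are not independent of each other. Of the 10 members 9 had a mean of at least 1 FPKM and were tested, and Ciita was not. Each of the 9 also kept a mean of at least 1 FPKM when any genotype was left out, the lowest being 1.10 for H2-DMb2 without Cxcr3-/-. In Cxcr3-/- against Cxcl10-/-, with limma, H2-Aa, H2-Ab1, H2-Eb1, H2-DMb2 and H2-Ob were higher in Cxcr3-/- at an adjusted p under 0.05 and none was lower, 5 of 9 where 4.69% of the 10866 tested genes were called higher and 12.5% in either direction. For the same 5, every Cxcr3-/- library was above every Cxcl10-/- library, a pattern that 12.7% of tested genes had. The median difference of the 9 was 1.23 in log2(FPKM + 1), against -0.02 over all tested genes. On the expected counts, edgeR called 2 of the 9, H2-Aa and H2-Eb1 (5.1% of genes higher), and DESeq2 called the same 5 as limma (7.91% of genes higher).

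In Cxcl10-/- against WT, limma and edgeR called 0 of 9 members, where they called 9.28% and 7.22% of tested genes. Each had 3 members at an unadjusted p under 0.05, and DESeq2, which called 13.8% of genes (7.18% lower), called H2-Aa and H2-Eb1 lower. Libraries did not overlap for H2-Eb1, H2-DMb2, H2-Oa and H2-Ob, all lower in Cxcl10-/-, 4 of 9 where 11.9% of tested genes had that pattern. The median of the 9 was -0.74, against 0.08 over all tested genes. In Cxcr3-/- against WT, limma and edgeR called 0 of 9 and 0.0% of all genes, with 3 members each at an unadjusted p under 0.05. DESeq2 also called none of the members, giving 5 of them no adjusted p, and 0.626% of all genes. H2-Ab1, H2-Eb1 and H2-Ob did not overlap and were higher in Cxcr3-/-, 3 of 9 against 12.1% of tested genes. The median of the 9 was 0.52, against 0.06 over all tested genes. A test for any difference among the 3 genotypes called H2-Aa, H2-Eb1 and H2-DMb2 (limma adjusted p = 0.0217, 0.0140 and 0.0414), 3 of 9 where 10.5% of genes were called, but not H2-Ab1 (0.0538) or H2-Ob (0.0573). In the same test edgeR, which called 8.39% of genes, called H2-Aa and H2-Eb1 and not H2-DMb2 (adjusted p = 0.130), while DESeq2, which called 16.7%, called H2-Aa, H2-Eb1 and H2-Ab1 (0.0308) and not H2-DMb2 (0.0594).

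**Figure D2:**
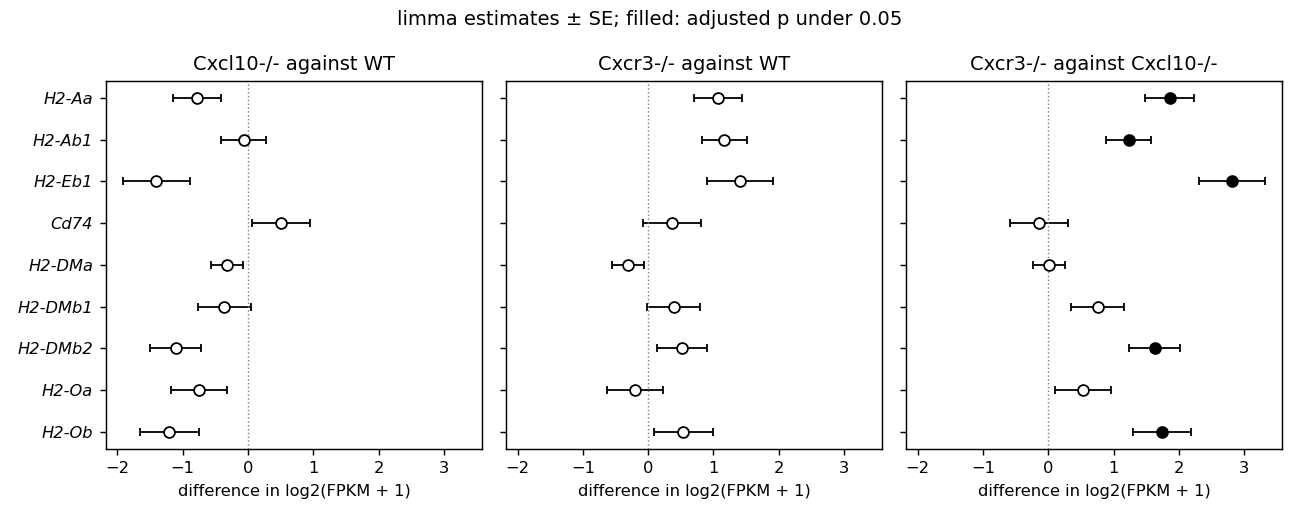
Difference in log2(FPKM + 1) with its SE from limma for the 9 tested members in each of the 3 comparisons; filled points have an adjusted p under 0.05. All 5 filled points are in Cxcr3-/- against Cxcl10-/-, from 1.23 for H2-Ab1 to 2.81 for H2-Eb1, and Cd74 and H2-DMa lie near 0 there.

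H2-Aa (ENSMUSG00000036594, chr17:34282744-34287823, minus strand of GRCm38 in GENCODE M21) encodes the alpha chain of the I-A molecule, the main class II molecule of C57BL/6 mice. Its libraries stood at 63.4, 84.0 and 108 FPKM in WT, at 76.4, 36.4 and 39.3 in Cxcl10-/-, and at 99.8, 275 and 198 in Cxcr3-/-. Every Cxcr3-/- library was above every Cxcl10-/- library, and the lowest Cxcr3-/- library lay below the highest of WT. H2-Aa was 1.86 ± 0.37 (log2(FPKM + 1), SE) higher in Cxcr3-/- than in Cxcl10-/-, with an adjusted p of 0.00914 in limma and 0.00678 in edgeR. It passed under all 31 other settings, between 1.54 and 2.42. Against WT, the difference was -0.78 ± 0.37 in Cxcl10-/- (limma adjusted p = 0.207, DESeq2 0.0339) and 1.07 ± 0.37 in Cxcr3-/- (limma 0.529).

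H2-Ab1 (ENSMUSG00000073421, chr17:34257689-34269419, plus strand) encodes the beta chain of I-A. Its libraries stood at 39.96, 50.1 and 53.9 FPKM in WT, at 44.8, 29.5 and 71.2 in Cxcl10-/-, and at 87.3, 177 and 81.7 in Cxcr3-/-. All 3 Cxcr3-/- libraries lay above the other 6, while those of WT and Cxcl10-/- overlapped. The difference of Cxcr3-/- from Cxcl10-/- was 1.23 ± 0.34 (log2, SE; adjusted p = 0.0379 in limma, 0.0967 in edgeR), and that from WT was 1.17 ± 0.34 (limma 0.444). Against WT, Cxcl10-/- differed by -0.06 ± 0.34 (limma 0.933). The call held in 10 of 31 other settings. In limma it was lost when any 1 WT library was left out (adjusted p of 0.0553 to 0.0593) and without Cxcl10-/- 1 (0.0608), Cxcl10-/- 2 (0.0946), Cxcr3-/- 1 (0.0680) or Cxcr3-/- 2 (0.122).

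H2-Eb1 (ENSMUSG00000060586, chr17:34305867-34316674, plus strand) encodes the beta chain of the I-E molecule. Its libraries stood at 10.5, 15.9 and 22.9 FPKM in WT, at 9.48, 7.66 and 1.76 in Cxcl10-/-, and at 27.3, 73.9 and 40.1 in Cxcr3-/-. The 3 genotypes did not overlap, with Cxcl10-/- lowest and Cxcr3-/- highest. Between the knockouts H2-Eb1 differed by 2.81 ± 0.51 (log2(FPKM + 1), SE), with an adjusted p of 0.00558 in limma and 0.0108 in edgeR. That was the largest difference of the 9 members on this scale, whereas in edgeR and DESeq2 H2-DMb2 had a larger one (3.35 and 3.37 against 3.01 and 3.01, log2). It passed under all 31 other settings, between 2.22 and 3.39, the lowest without Cxcl10-/- 3, whose level was 1.76 FPKM. Against WT, H2-Eb1 differed by -1.40 ± 0.51 in Cxcl10-/- (limma adjusted p = 0.105, DESeq2 0.0359) and by 1.41 ± 0.51 in Cxcr3-/- (limma 0.555). The annotated H2-Eb1 gene overlaps an antisense gene, Gm20513, on the opposite strand over 2204 bases.

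The alpha chain partner of H2-Eb1, H2-Ea, is known not to be transcribed in the H2b haplotype of C57BL/6 mice, so that no I-E reaches the surface. H2-Ea had 0 counts in all WT and Cxcl10-/- libraries and 3 counts over the 3 Cxcr3-/- libraries. H2-Eb2, a second beta chain gene of the region, had 2 counts over WT, 0 over Cxcl10-/- and 13 in Cxcr3-/-, all of them in replicate 3. Both were too low to be tested. Against the other beta chain gene of the same library, H2-Eb1 stood at 0.262, 0.318 and 0.426 of the H2-Ab1 level in FPKM in WT, 0.212, 0.260 and 0.0247 in Cxcl10-/-, and 0.313, 0.416 and 0.490 in Cxcr3-/-. Cxcl10-/- lay below both other genotypes in each of its libraries, and WT and Cxcr3-/- overlapped. H2-Aa against H2-Ab1 gave 1.59, 1.67 and 2.00 in WT, 1.71, 1.24 and 0.552 in Cxcl10-/- and 1.14, 1.55 and 2.43 in Cxcr3-/-, with all genotypes overlapping.

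Cd74 (ENSMUSG00000024610, chromosome 18, 60803848 to 60812652, plus strand) encodes the invariant chain and is the only member besides Ciita that lies outside the class II region. Its libraries stood at 108, 103 and 145 FPKM in WT, at 239, 113 and 174 in Cxcl10-/-, and at 68.2, 321 and 159 in Cxcr3-/-. The Cxcr3-/- libraries held both the lowest and the highest value of the 9, and all genotypes overlapped. Cd74 differed by -0.14 ± 0.44 (log2, SE) between Cxcr3-/- and Cxcl10-/- (limma adjusted p = 0.865), by 0.51 ± 0.44 between Cxcl10-/- and WT (0.503) and by 0.37 ± 0.44 between Cxcr3-/- and WT (0.905). The sign of the first difference turned in 16 of 31 other settings, among them edgeR (0.09), DESeq2 (0.08) and quantile normalization (0.16).

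Set against the I-A chains of the same library, Cd74 parted the genotypes. Its level over the summed level of H2-Aa and H2-Ab1 was 1.04, 0.770 and 0.896 in WT, 1.98, 1.72 and 1.57 in Cxcl10-/-, and 0.364, 0.711 and 0.567 in Cxcr3-/-. Every Cxcl10-/- library thus held more Cd74 than H2-Aa and H2-Ab1 together, every Cxcr3-/- library held less, and the 3 genotypes did not overlap. This ratio was chosen after its values had been seen, and it was given no test.

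**Figure D3:**
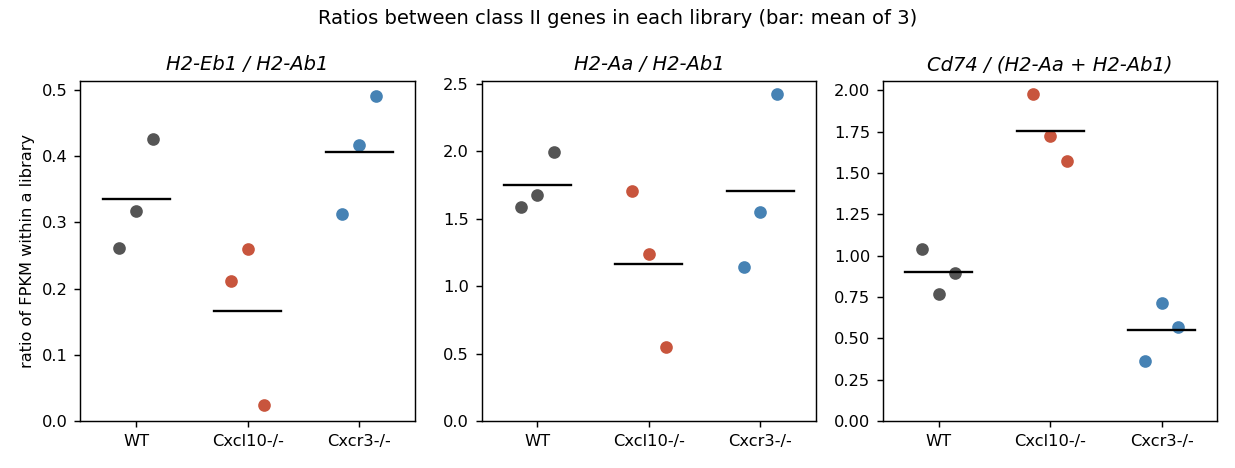
Ratios of FPKM between class II genes in each of the 9 libraries, on linear axes from 0; points are libraries and bars the mean of 3. Cd74 over H2-Aa and H2-Ab1 runs from 1.57 to 1.98 in Cxcl10-/-, from 0.770 to 1.04 in WT and from 0.364 to 0.711 in Cxcr3-/-, whereas H2-Aa over H2-Ab1 overlaps in all genotypes.

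The DM molecule, which edits the peptides, pairs the H2-DMa chain with a beta chain from H2-DMb1 or H2-DMb2. H2-DMa (ENSMUSG00000037649, chr17:34119541-34139101, plus strand) stood at 173, 135 and 194 FPKM in WT, at 105, 155 and 141 in Cxcl10-/-, and at 102, 192 and 120.2 in Cxcr3-/-. The genotypes overlapped, and the differences were 0.01 ± 0.25 (log2, SE) between the knockouts, -0.32 ± 0.25 for Cxcl10-/- against WT and -0.31 ± 0.25 for Cxcr3-/- against WT (limma adjusted p = 0.978, 0.442 and 0.826). The annotated gene overlaps Brd2 on the opposite strand over 3094 bases, and whether the counting used strand is not given. H2-DMb1 (ENSMUSG00000079547, chr17:34153072-34160230, plus strand) stood at 27.1, 9.74 and 27.2 FPKM in WT, at 17.5, 18.7 and 9.92 in Cxcl10-/-, and at 18.1, 28.6 and 33.0 in Cxcr3-/-. It too overlapped in all genotypes and passed in no comparison, the largest difference being 0.76 ± 0.41 between the knockouts (limma adjusted p = 0.249).

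H2-DMb2 (ENSMUSG00000037548, chr17:34143307-34151555, plus strand) is the weakly expressed copy of H2-DMb1. It stood at 1.75, 1.20 and 2.73 FPKM in WT, at 0.36, 0.32 and 0.26 in Cxcl10-/-, and at 2.25, 3.05 and 4.06 in Cxcr3-/-. Each Cxcl10-/- library lay below all 6 others, while WT and Cxcr3-/- overlapped. These levels rested on 25.8 to 69.1 expected counts per library in WT, 5.84 to 6.98 in Cxcl10-/- and 40.7 to 70.0 in Cxcr3-/-. H2-DMb2 was 1.63 ± 0.39 (log2(FPKM + 1), SE) higher in Cxcr3-/- than in Cxcl10-/- (adjusted p = 0.0193 in limma, 0.0614 in edgeR, 0.0122 in DESeq2), and differed by -1.11 ± 0.39 in Cxcl10-/- against WT without passing (limma 0.0953). The pseudocount of 1 understates the change of so low a gene: on the counts, the difference between the knockouts was 3.35 in edgeR and 3.37 in DESeq2 (log2). The first call held in 15 of 31 other settings, with differences of 1.19 to 3.55, and was lost in limma without Cxcr3-/- 2 (0.0524) or Cxcr3-/- 3 (0.0781).

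The counts of H2-DMb1 and H2-DMb2 are fractions, as when reads are shared out between near copies, and the split is uncertain. As given, H2-DMb2 made up 6.07, 11.0 and 9.12% of their summed FPKM in WT, 2.01, 1.68 and 2.55% in Cxcl10-/- and 11.1, 9.63 and 11.0% in Cxcr3-/-. The Cxcl10-/- shares all lay below those of the other 6 libraries. Summed, the beta chain genes differed by 0.88 ± 0.40 (log2, SE) between Cxcr3-/- and Cxcl10-/- and did not pass (limma adjusted p = 0.172).

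The DO molecule, which inhibits DM, is made of the H2-Oa and H2-Ob chains. H2-Ob (ENSMUSG00000041538, chr17:34238903-34254414, plus strand) stood at 6.52, 6.73 and 6.19 FPKM in WT, at 0.66, 5.33 and 2.27 in Cxcl10-/-, and at 12.9, 9.73 and 7.58 in Cxcr3-/-. The 3 genotypes did not overlap, and the WT libraries lay closer together than the WT libraries of any other member, with a coefficient of variation of 4.20%. H2-Ob was 1.74 ± 0.45 (log2, SE) higher in Cxcr3-/- than in Cxcl10-/- (adjusted p = 0.0277 in limma, 0.0871 in edgeR, 0.0363 in DESeq2). The call held in 15 of 31 other settings and was lost in limma without Cxcr3-/- 1 (0.118), Cxcr3-/- 2 (0.0687) or Cxcr3-/- 3 (0.0535). Against WT, it differed by -1.20 ± 0.45 in Cxcl10-/- (limma 0.114) and by 0.54 ± 0.45 in Cxcr3-/- (limma 0.844).

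H2-Oa (ENSMUSG00000024334, chr17:34092340-34095234, plus strand) stood at 12.8, 9.76 and 16.1 FPKM in WT, at 8.68, 8.91 and 4.64 in Cxcl10-/-, and at 4.95, 14.9 and 16.4 in Cxcr3-/-. All Cxcl10-/- libraries lay below those of WT, and the Cxcr3-/- libraries spanned both. It passed in no comparison: the difference was -0.74 ± 0.43 (log2, SE) in Cxcl10-/- against WT (limma adjusted p = 0.300), 0.54 ± 0.43 between the knockouts (0.451) and -0.21 ± 0.43 in Cxcr3-/- against WT (0.959). An antisense gene, BC051537, covers the annotated H2-Oa gene over 2895 bases.

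Ciita (ENSMUSG00000022504, chr16:10480059-10528418, plus strand) encodes the transactivator on which the other members depend in antigen-presenting cells. It stood at 0.79, 0.03 and 0.55 FPKM in WT, at 0.18, 0.04 and 0.95 in Cxcl10-/-, and at 0.70, 0.49 and 2.71 in Cxcr3-/-, from 3 to 90 expected counts per library. The genotypes overlapped. With no filter on low values, Ciita differed by 0.66 ± 0.40 (log2, SE) between Cxcr3-/- and Cxcl10-/- (adjusted p = 0.366 in limma, 0.620 in edgeR), so that no difference was detectable at this depth. The annotated gene shares 25888 bases with Dexi on the opposite strand.

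Of the 10 members, 8 lie within the class II region of chromosome 17, interleaved with 5 tested genes of other function: Brd2, a chromatin reader, the immunoproteasome genes Psmb8 and Psmb9, and the peptide transporter genes Tap1 and Tap2, which serve class I. Between Cxcr3-/- and Cxcl10-/-, the 5 members called higher were H2-DMb2, which lies between H2-DMa and H2-DMb1, and H2-Ob, H2-Ab1, H2-Aa and H2-Eb1, which follow one another at the far end. Of the 5 other genes none was called higher, near the 4.69% of all tested genes that limma called higher. These 5 are too few to be set against the members. Psmb8 was called lower, at -0.97 ± 0.20 (log2, SE, with adjusted p = 0.0102 in limma and 0.0203 in edgeR), where limma called 7.81% of all genes lower and edgeR 5.41%. In Cxcl10-/- against WT, where no member passed in limma, limma called 3 of the 5 higher, against 6.1% of all tested genes. They were Brd2 (0.96 ± 0.23), Psmb9 (0.66 ± 0.17) and Tap1 (0.84 ± 0.23), with limma adjusted p = 0.0226, 0.0305 and 0.0397. Of these, edgeR, which called 3.52% of all genes higher, called only Psmb9 (0.0378, against 0.178 for Brd2 and 0.0510 for Tap1).

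**Figure D4:**
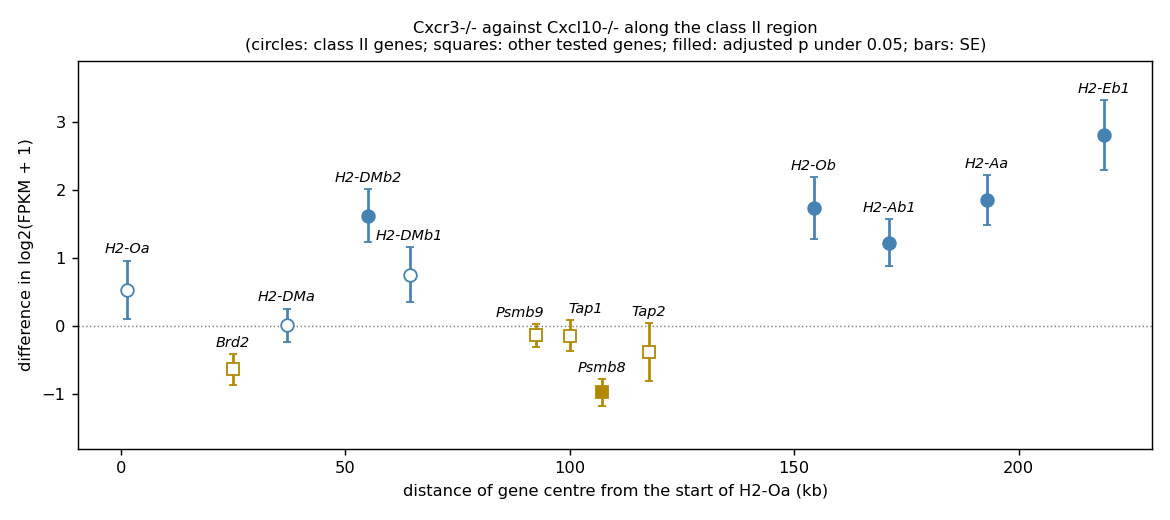
Difference in log2(FPKM + 1) between Cxcr3-/- and Cxcl10-/- with its SE from limma, for tested genes along the class II region by distance from the start of H2-Oa in kb; circles are members, squares other genes, and filled points have an adjusted p under 0.05. H2-Ob, H2-Ab1, H2-Aa and H2-Eb1 at the far end are filled and above 1, whereas Tap1, Tap2, Psmb9 and Brd2 are open and below 0.

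The factors that act on class II promoters were detected in all genotypes. Over all tested genes, limma called 4.69% higher and 7.81% lower in Cxcr3-/- against Cxcl10-/- and edgeR 5.1% and 5.41%, and in Cxcl10-/- against WT limma called 6.1% higher and 3.18% lower and edgeR 3.52% and 3.7%. Of 11 tested, 0 were called higher and 1 lower in Cxcr3-/- against Cxcl10-/- in limma and edgeR: Spi1, which encodes the myeloid and B-cell factor PU.1, at 7.04 against 18.1 FPKM (-1.19 ± 0.31; adjusted p = 0.0294 in limma, 0.0360 in edgeR). The median of the 11 was 0.09. Rfx5, the X box factor subunit, stood at 22.1 FPKM in Cxcr3-/-, 15.3 in Cxcl10-/- and 15.1 in WT, and between the knockouts differed by 0.57 ± 0.33 (limma adjusted p = 0.286). Its partners Rfxank (-0.56 ± 0.56, limma 0.551) and Rfxap (0.04 ± 0.46, limma 0.961) were not called either. Irf1, which carries the interferon-gamma signal to Ciita, stood at 21.4 to 35.3 FPKM in WT, 47.7 to 54.3 in Cxcl10-/- and 49.6 to 57.4 in Cxcr3-/-. Both knockouts lay above WT in every library without passing: Irf1 differed from WT by 0.75 ± 0.23 in Cxcl10-/- (adjusted p = 0.0576 in limma, 0.0870 in edgeR) and by 0.84 ± 0.23 in Cxcr3-/- (limma 0.441, edgeR 0.643), and between the knockouts by 0.09 ± 0.23 (limma 0.832). Nlrc5, the relative of CIITA that drives class I genes, stood at 27.2 against 18.9 FPKM, a difference of 0.66 ± 0.38 (limma 0.283). Against WT, 0 of the 11 factors were called in either knockout by limma or edgeR, with 2 at an unadjusted p under 0.05 in each comparison and tool, and DESeq2 called 1 in Cxcl10-/- and 0 in Cxcr3-/-.

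A list set by hand as co-regulators of CIITA held 5 tested genes, Myc among them, and whether Myc acts with CIITA was not tested. Of the 5, limma called 2 higher and 1 lower in Cxcr3-/- against Cxcl10-/-, where it called 4.69% and 7.81% of all genes. By edgeR 3 were higher and 0 lower, where 5.1% and 5.41% of all genes were. Kat2b, a histone acetyltransferase gene, was 1.17 ± 0.27 higher (14.7 against 6.05 FPKM; adjusted p = 0.0166 in limma, 0.00848 in edgeR), and Myc, a growth-promoting transcription factor gene, was 0.93 ± 0.23 higher (limma 0.0224, edgeR 0.0181). Crebbp, another acetyltransferase gene, was lower in limma (-1.26 ± 0.34; 0.0324) but not called by edgeR (0.222). Ep300, also an acetyltransferase gene and named because edgeR called it, was at 11.1 against 5.47 FPKM (0.89 ± 0.28; limma 0.0574, edgeR 0.0104). In Cxcl10-/- against WT, Kat2b was lower (-1.14 ± 0.27; limma 0.0232, edgeR 0.0110) and Crebbp higher in limma (1.38 ± 0.34; 0.0266, edgeR 0.184). There edgeR, which called 3.7% of all genes lower, called 2 of the 5 lower, Kat2b and Ep300 (-0.66 ± 0.28; limma 0.158, edgeR 0.0306). In Cxcr3-/- against WT none of the 5 was called by limma, edgeR or DESeq2 or had an unadjusted p under 0.05 in limma or edgeR. None of the 4 tested genes of the interferon-gamma receptor and its JAK kinases, nor of 5 for class II turnover and costimulation, was called by limma or edgeR in any comparison, with 0 to 2 of each list at an unadjusted p under 0.05 and 1 call by DESeq2, in the receptor list between the knockouts.

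Endosomal processing genes make the peptides and trim the invariant chain. Of 10 tested, 3 were called lower and 0 higher in Cxcr3-/- against Cxcl10-/- by limma and by edgeR, where 7.81% and 5.41% of all genes were called lower, and the list's median was -0.64 against -0.02 over all genes. They were Ctsl, cathepsin L, at 35.4 against 92.2 FPKM (-1.35 ± 0.19; limma adjusted p = 0.00159), Lgmn, legumain, at 0.217 against 10.4 FPKM (-2.81 ± 0.60; 0.0122), and Cst3, the cathepsin inhibitor cystatin C, at 639 against 1035 FPKM (-0.71 ± 0.14; 0.00963). Ctss, the cathepsin that trims the invariant chain in B and dendritic cells, differed by -0.60 ± 0.36 (limma 0.306), and Ifi30, a lysosomal thiol reductase, by 0.70 ± 0.72 (limma 0.567). In Cxcl10-/- against WT, Ctsl (1.23 ± 0.19; limma 0.00291) and Lgmn (2.46 ± 0.60; limma 0.0260, edgeR 0.0688) were higher, and in Cxcr3-/- against WT 0 of 10 were called by limma, edgeR or DESeq2, with 2 at an unadjusted p under 0.05 in limma and 2 in edgeR. The summed endothelial and stromal marker genes were also higher in the Cxcl10-/- libraries. The monocyte and macrophage sum, mostly Lyz2, was lower there than in WT and higher than in Cxcr3-/-. Of that list's 7 tested genes, limma and edgeR called 2 higher in Cxcl10-/- than in WT and 0 lower (6.1% and 3.52% of all genes higher). They were Mrc1, at 9.28 against 1.51 FPKM (adjusted p = 0.0177 in limma, 0.01845 in edgeR), and Vcam1, at 26.3 against 2.03 FPKM (limma 0.00255, edgeR 0.00705). The part of these marker genes in the values above was not tested.

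Genes induced by interferon-gamma were called in both directions. The 23 tested include Irf1, Nlrc5 and the neighbours Psmb8, Psmb9 and Tap1 named above. Of the 23, 2 were called higher and 2 lower in Cxcr3-/- against Cxcl10-/- in limma and edgeR, with a median of 0.28 against -0.02 over all genes. In that comparison limma called 4.69% of all genes higher and 7.81% lower, and edgeR 5.1% and 5.41%. Calls on 2 genes in each direction are too few to set the list apart from these shares. Gbp3 and Gbp5, guanylate-binding proteins, were higher by 1.25 ± 0.32 and 1.49 ± 0.43 (limma adjusted p = 0.0278 and 0.0436), and Ubd, a ubiquitin-like modifier, was lower (-4.77 ± 0.76; 0.00292), as was Psmb8. In Cxcl10-/- against WT, 4 were higher and 1 lower in limma: Ubd (4.84 ± 0.76; 0.00325), Cxcl9, a CXCR3 ligand (2.05 ± 0.44; 0.0158), Psmb9 and Tap1, with Gbp5 lower (-1.57 ± 0.43; 0.0431). Of all genes, limma called 6.1% higher and 3.18% lower there. By edgeR, with 3.52% and 3.7%, 2 were higher, Ubd (0.0367) and Psmb9 (0.0378), and Gbp5 was lower (0.0323), while Cxcl9 (0.0736) and Tap1 (0.0510) were not called. In Cxcr3-/- against WT, limma and edgeR called 0 of the 23, with 7 and 5 at an unadjusted p under 0.05, and DESeq2 called 1.

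Among the genes most like the class II chains across the 9 libraries were Ezr (Pearson r = 0.890), Cox8a (0.889), Slc16a9 (0.872) and Pcca (0.855), by their log2(FPKM + 1) against that of the summed FPKM of Cd74, H2-Aa, H2-Ab1 and H2-Eb1. That sum was lowest in Cxcl10-/- 2, at 187 FPKM, and highest in Cxcr3-/- 2, at 848. The 9 points share library depth and genotype, so the values describe these libraries. Ezr, the gene of the membrane-actin linker ezrin, ranged from 12.4 FPKM in Cxcl10-/- 2 to 24.6 in Cxcr3-/- 2.

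Cells known for high class II expression were looked for by their own markers. Of 11 dendritic cell genes, Itgax, Cd209a and Batf3 were at 0 in all WT and Cxcl10-/- libraries and at most 0.31 FPKM in a Cxcr3-/- library. The list summed to 36.7 to 52.6 FPKM in WT, 32.7 to 82.2 in Cxcl10-/- and 35.6 to 43.1 in Cxcr3-/-, most of it from Bst2 and Flt3. Of 12 B-cell genes, Ebf1, Cd22 and Iglc2 were at 0 in all WT libraries. That list summed to 50.5 to 71.6 FPKM in WT, 39.3 to 152 in Cxcl10-/- and 14.1 to 79.8 in Cxcr3-/-, carried by Cd79b. Cxcl10-/- 3, which had the lowest H2-Eb1, held 11.7 FPKM of Igkc. No gene of either list was called in any comparison by limma, edgeR or DESeq2, with 3 dendritic cell and 2 B-cell genes tested and at most 1 of each at an unadjusted p under 0.05.

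The 14 monocyte and macrophage genes summed to 561 to 689 FPKM in WT, 439 to 485 in Cxcl10-/- and 228 to 408 in Cxcr3-/-, of which Lyz2 gave most, and Adgre1 was at 0 in all Cxcl10-/- libraries. Of 7 tested, limma called 3 lower in Cxcr3-/- than in Cxcl10-/- and 0 higher, where it called 7.81% of all genes lower. They were Mrc1, Vcam1 and C1qb. Of these, edgeR, which called 5.41% of all genes lower, called Mrc1 and Vcam1 and not C1qb (adjusted p = 0.141). Stromal and bone genes summed to 16.5 to 21.4 FPKM in WT, 93.1 to 350.2 in Cxcl10-/- and 17.5 to 22.6 in Cxcr3-/-. Neutrophil genes summed to 11.1 to 22.8 FPKM in WT, 14.5 to 180 in Cxcl10-/- and 4.89 to 25.1 in Cxcr3-/-, and those of T, NK and innate lymphoid cells to 333 to 409, 173 to 231 and 202 to 406. Cxcr3-/- 2, which had the highest H2-Aa, H2-Ab1, H2-Eb1 and Cd74 of the 9 libraries, held 0.13 FPKM of the dendritic cell gene Clec9a and 0 of Itgax, Cd209a and Batf3.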

How the data were processed

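Per the file headers, the deposited table gives FPKM and counts for each gene in 9 libraries, both made by the authors. The counts are taken to be expected counts deposited by the authors, since 87.1% of the values are whole and the rest fractions. Per the submitters' processing notes, the tools were HISAT2, RSEM, StringTie and fastp. Versions, build, annotation and use of strand were not given. Positions came from GENCODE M21 (GRCm38), which held 22267 of the 22322 identifiers; 0 per-sample columns were left unused. The reads carry no molecular identifiers, so that counts of few reads understate the error.

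The 10866 genes whose mean over all 9 libraries reached 1 FPKM were tested as log2(FPKM + 1), a scale that understates changes of low genes. limma 3.58.1 in R 4.3.3 was fitted with 1 mean per genotype, an intensity trend and Benjamini-Hochberg adjustment over all genes tested, with calls at an adjusted p under 0.05. edgeR 4.0.16 (quasi-likelihood test, TMM factors) and DESeq2 1.42.0 were run on expected counts rounded to whole numbers, for these genes. Adjusted p-values in the text are from limma unless another tool is named, and a difference is that of the first group named from the second. The scripts were tested on simulated data with known changes. No libraries were identical.

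The members, gene lists, tests and settings were chosen with earlier results of these data known. All members were named; of each list, up to 6 called genes with the smallest p (3 for marker lists) and Rfx5, Rfxank, Rfxap, Nlrc5, Ctss, Ifi30 and Irf1. Some genes that these rules name are not reported here. Genes named only as at 0, as carrying a list's sum or as lying beside a member were named after their values were seen. The correction for GC content and length, the edgeR fits without each library and the sum of H2-DMb1 with H2-DMb2 were chosen after seeing the data. Promoters of H2-Ab1 and Ciita were not read, as the RefSeq promoters used held no entry for them. That of Cd74 was searched in the same way but left out by choice, so whether it holds the X and Y boxes is not reported here.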

Additional observations from a re-analysis of the deposited data

How the results depend on the processing

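H2-Aa and H2-Eb1 passed between Cxcr3-/- and Cxcl10-/- in all 31 other settings. The count of members called there, 5 in limma, was 3 with no filter on low values, 2 with only the groups compared, 2 in edgeR with TMM or with DESeq2 size factors, 3 in edgeR without a filter, and 2 to 5 leaving out 1 library, with 2 without Cxcr3-/- 2 in limma. Of all genes, 1359 in limma, the same comparison had 819 with no filter, 618 with only the groups compared and 423 to 1532 leaving out 1 library. In Cxcl10-/- against WT, 0 members became 1 without the intensity trend (H2-DMb2), 2 in edgeR without a filter and in DESeq2 (H2-Aa and H2-Eb1), and 0 to 1 leaving out 1 library (H2-Ob, without Cxcl10-/- 2). Of all genes, 1008 became 588 with no filter, 616 without the trend, 609 with the correction for GC content and length, and 193 to 1192 leaving out 1 library. In Cxcr3-/- against WT, 0 genes became 38 in edgeR without a filter, 68 in DESeq2 and 0 to 6 leaving out 1 library; no member was called in any setting. For any difference, 3 members became 0 with no filter, 5 without mitochondrial genes and 1 to 3 leaving out 1 library, and 1141 genes became 570 with no filter, 530 without the trend, 1816 in DESeq2 and 400 to 1132 leaving out 1 library. No filter tests more genes and the groups compared alone hold fewer samples; other causes were not tested. Scaling without mitochondrial genes moved the median of all genes by over 0.1, to -0.11 in Cxcl10-/- against WT and 0.12 between the knockouts.

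Reversed signs were all of differences that did not pass. For Cd74 between the knockouts they were 0.16 (quantile normalization), 0.0249 (without mitochondrial genes), 0.0893 (edgeR with TMM), 0.0799 (edgeR with DESeq2 size factors), 0.0559 (edgeR without filter), 0.0795 (DESeq2) and 0.30 (GC and length correction), and between -0.68 and 0.49 leaving out 1 library. Leaving out 1 library also turned Cd74 (-0.17 to 0.97), H2-DMb1 (-0.10 to 0.64) and H2-Oa (-0.49 to 0.29) in Cxcr3-/- against WT, H2-Ab1 (-0.61 to 0.24) in Cxcl10-/- against WT and H2-DMa (-0.26 to 0.26) between the knockouts.

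Same-numbered libraries gave no sign of deviating together: over 9 pairs, the correlation of deviations from the group means lay between -0.09 and 0.03. With 3 libraries per group this cannot exclude that the numbers pair the mice. With the replicate number as a block, 810, 0 and 1118 genes and 0, 0 and 4 members were called in Cxcl10-/- against WT, Cxcr3-/- against WT and Cxcr3-/- against Cxcl10-/-, and 896 genes and 2 members for any difference. H2-DMb2 and Ciita, at few counts per library, are the members whose depth limits most what could be seen.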
